A study of Mus musculus with 12 samples.

Results

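The genes described here mark the capillary endothelium of the lung. They are 10 of the 56980 genes in the count table and were taken by name. Car4, Ednrb and Apln were classed as genes of aerocytes, and Aplnr, Gpihbp1, Plvap, Kit, Ptprb, Tek and Emcn as genes of general capillary cells. The classes are labels given with the names, and bulk tissue cannot show whether a gene is limited to its class. All 10 were counted in every library (at least 255 reads) and all 10 passed the filter on low counts.

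Lung tissue was profiled by sequencing of polyadenylated RNA in 12 libraries, 4 in each of 3 groups. All mice were male C57BL/6 of 6 to 8 weeks, and the series text gives day 28 as the day of killing for all 3 groups. Model animals received bleomycin, which injures the lung and leads to fibrosis, once into the trachea at 5 mg/kg. HBG animals received bleomycin in the same way and Huashibaidu granules, a Chinese herbal formula, by mouth at 7 g/kg. Control animals had no stated bleomycin, and Control and Model animals were given distilled water in place of the granules. The labels do not say what was instilled into the trachea of Control animals. They give 2 accounts of the granules: 1 starts before bleomycin and runs to day 28, and the other starts on day 7 after it and lasts 14 days. They do not say whether each library is 1 animal, so a p-value here speaks only to the spread among these libraries, some of which may be technical. The comparisons follow from the design, and they share libraries: Model against Control addresses bleomycin, HBG against Model the granules given with it, and HBG against Control both together.

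The wall of the alveolus holds 2 kinds of capillary endothelial cell. Aerocytes are large, thin cells that lie against the alveolar epithelium and carry out gas exchange, and general capillary cells maintain the vessel and act as its progenitors after injury. Both kinds share pan-endothelial genes such as Pecam1 and Cdh5 and differ in a small set of receptors, ligands and surface enzymes. Apelin from aerocytes and its receptor on general capillary cells form a ligand and receptor pair between them.

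For 6 of the 10 genes a start site was listed in the RefSeq promoter table (GRCm38.p6). The 250 bases before the start are shown for 4 of them, as 2 examples of each class: Apln and Ednrb of aerocytes, and Kit and Emcn of general capillary cells. Capitals mark matches on either strand to short core motifs of factor families known from endothelium. The motif searched for the ETS family was AGGAAG. That of the KLF family, which includes flow-responsive factors, was CCACCC. The hypoxia-inducible (HIF) motif was ACGTG. Factors of the SOX family were represented by the letters ACAAAG. For the GATA family the letters were AGATAA. No match overlapped another in the windows shown. Kit has a pair of listed starts, and the window of the first is shown.
Apln, chrX:48034854-48035103, minus strand: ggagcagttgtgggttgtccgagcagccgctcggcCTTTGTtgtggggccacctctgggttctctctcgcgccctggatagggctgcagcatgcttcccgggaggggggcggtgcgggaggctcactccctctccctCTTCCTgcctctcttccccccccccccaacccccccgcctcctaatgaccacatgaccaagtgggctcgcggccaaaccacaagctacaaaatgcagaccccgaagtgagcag
Ednrb, chr14:103843702-103843951, minus strand: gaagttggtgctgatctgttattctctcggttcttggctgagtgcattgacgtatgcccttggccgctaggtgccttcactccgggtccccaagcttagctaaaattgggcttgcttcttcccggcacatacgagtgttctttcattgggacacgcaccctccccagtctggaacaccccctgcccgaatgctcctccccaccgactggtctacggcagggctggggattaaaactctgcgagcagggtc
Kit, chr5:75574737-75574986, plus strand: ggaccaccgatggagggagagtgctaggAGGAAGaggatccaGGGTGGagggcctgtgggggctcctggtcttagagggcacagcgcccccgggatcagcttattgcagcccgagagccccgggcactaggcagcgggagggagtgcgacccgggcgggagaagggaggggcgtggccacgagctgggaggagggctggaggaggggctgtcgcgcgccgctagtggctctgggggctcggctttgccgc
Emcn, chr3:137340828-137341077, plus strand: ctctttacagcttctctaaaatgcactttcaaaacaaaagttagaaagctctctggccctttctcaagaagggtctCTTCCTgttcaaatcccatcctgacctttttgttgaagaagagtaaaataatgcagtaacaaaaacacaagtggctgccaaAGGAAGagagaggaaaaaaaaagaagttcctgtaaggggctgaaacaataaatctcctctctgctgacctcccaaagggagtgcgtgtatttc
The ETS letters occurred in 3 of the 6 genes (Apln, Kit and Emcn), against 29.6% of 32536 promoter windows of this length. SOX letters were found in 2 of 6 (Apln and Tek; 16.5% of windows) and KLF letters in 1 of 6 (Kit; 28.1%). HIF and GATA letters were found in none of the 6 (16.7% and 9.97% of windows). These are matches of letters and say nothing of whether a factor was bound in these lungs.

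Library totals were 18864759 to 27150787 reads in the Control group, 19230806 to 22622406 among Model libraries, and 17979863 to 20752001 among HBG libraries. Values are CPM (counts scaled to the library total with TMM factors), and 3 counts in a library correspond to 0.11 to 0.167 CPM. The lung label was matched by its markers, with Sftpc of alveolar type II cells at 7736 to 18930 CPM and Ager of type I cells at 1514 to 2415 CPM. Over all 17827 genes tested, 62 passed an edgeR quasi-likelihood adjusted p of 0.05 in Model against Control (9 higher, 53 lower), 0 in HBG against Model (433 at an unadjusted p under 0.05; DESeq2 called 3) and 27 in HBG against Control (4 higher, 23 lower). A library apart from its label's group was Model 4, where 10 macrophage genes summed to 365 CPM, while Control libraries had 280 to 410 CPM and the remaining Model libraries 928 to 3065 CPM. Cardiac muscle genes (11 of 12 tested) summed to 861 to 5595 CPM in Control libraries, 367 to 3231 CPM in Model libraries and 366 to 3391 CPM in HBG libraries.

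No difference between groups was detectable for any of the 10 genes. None passed the threshold in any of the 3 comparisons (edgeR quasi-likelihood test). The background, the share of all tested genes called, was 0.348% for Model against Control, 0.0% for HBG against Model, and 0.151% for HBG against Control. None of the 10 genes reached an unadjusted p of 0.05 in this edgeR fit, and DESeq2 and limma-voom called none after adjustment. In an edgeR refit without HBG 3, 1 gene had an unadjusted p of 0.0206 in HBG against Model (903 of 18103 tested genes were under 0.05). Without Control 4, Model 2 and HBG 3 together, 1 gene had 0.0321 in Model against Control (2043 of 17855 under 0.05). In HBG against Model that edgeR refit gave 1 gene 0.0159 (841 of 17855). None passed after adjustment. No gene had 2 groups without overlap, where 8.71%, 1.13% and 6.33% of all tested genes did. The smallest adjusted p was 0.612, 0.9999 and 0.791 in the same order. Precision was limited: the standard errors of the log2 fold changes lay between 0.33 and 0.73, and the 95% interval for Car4 in Model against Control ran from a 0.518-fold to a 1.59-fold level. In bulk tissue fewer capillary cells and less RNA per cell cannot be told apart.

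Car4 encodes carbonic anhydrase 4, an enzyme held on the luminal surface of aerocytes that speeds the exchange of carbon dioxide. Its level was 117, 81.0, 118.5 and 144 CPM in Control libraries 1 to 4, 61.4, 143, 94.8 and 118.5 in Model libraries 1 to 4, and 41.4, 124, 177 and 111 in HBG libraries 1 to 4. HBG held both the lowest and the highest of the 12 values and the groups overlapped throughout. The means were 115 ± 26.0 CPM in Control, 104.5 ± 34.9 in Model and 113 ± 55.7 in HBG (SD, n = 4), with log2 fold changes (SE 0.37 in each) of -0.14 in Model against Control, 0.12 in HBG against Model, and -0.02 for HBG relative to Control. Fold changes of the other genes are given in this order.

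Ednrb, the endothelin B receptor, which clears endothelin from the circulation and releases vasodilators, varied more. Control libraries 1 to 4 held 89.8, 54.8, 88.3 and 101.3 CPM, Model libraries 30.6, 115, 49.7 and 91.1, and HBG libraries 31.6, 106, 136 and 88.7. In Model, libraries 1 and 3 lay below all Control libraries and library 2 above them. The means of 83.6 ± 20.02, 71.5 ± 38.3 and 90.55 ± 43.9 CPM gave log2 fold changes of -0.23, 0.34 and 0.12 (SE 0.44 to 0.45). The first of these depended on 1 library: without Model 1 it was 0.03. With limma-voom and library weights it was -0.77 (SE 0.32, unadjusted p 0.0325, adjusted p 0.159) and that of HBG against Model was 0.81 (SE 0.34, unadjusted p 0.0351, adjusted p 0.308).

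Apln, the peptide ligand apelin, was the least abundant of the aerocyte genes. It read 48.9, 31.6, 31.3 and 51.1 CPM in Control, 21.7, 49.9, 28.5 and 32.8 in Model and 13.7, 33.4, 69.7 and 29.6 in HBG. HBG 1 and HBG 3 were the lowest and the highest of all 12 libraries. The means were 40.75 ± 10.8, 33.2 ± 12.05 and 36.6 ± 23.7 CPM and the log2 fold changes -0.29, 0.14 and -0.15 (SE 0.41).

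**Figure D1:**
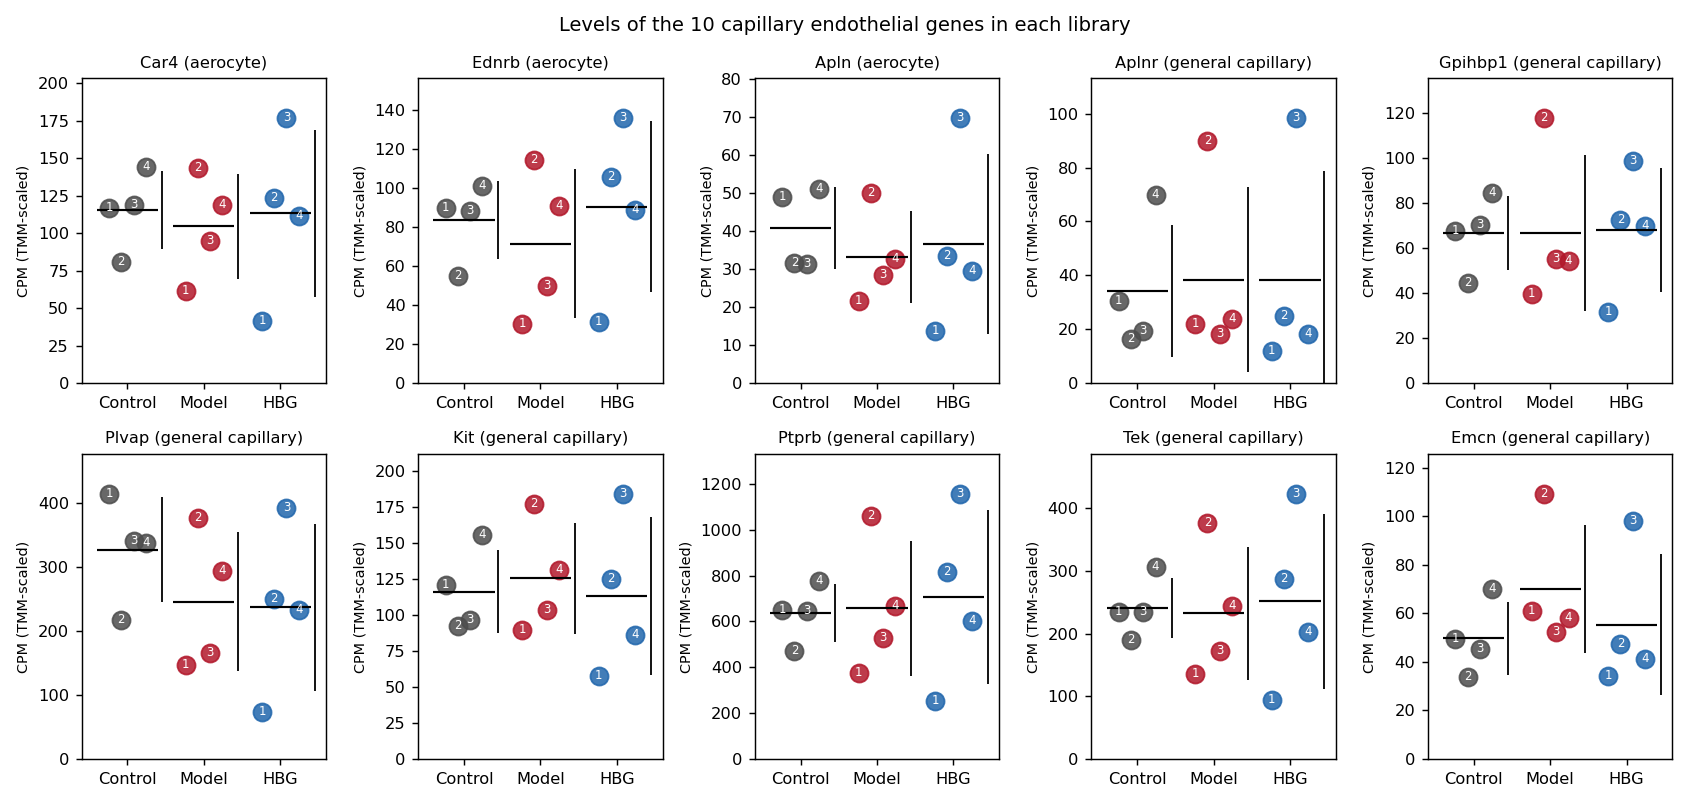
Level of each gene in TMM-scaled CPM (vertical axes, each from 0) in the 4 libraries of Control, Model and HBG (points), with the group mean and SD (bars; a bar that would pass 0 is cut there). The groups overlap for all 10 genes, and Aplnr shows 1 library far above the others in Model (89.9 CPM) and in HBG (98.3 CPM).

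Aplnr, the apelin receptor of general capillary cells, had the widest spread of the 10 genes. Its values were 30.6, 16.6, 19.5 and 69.9 CPM in Control, 22.0, 89.9, 18.3 and 23.7 in Model and 11.9, 24.8, 98.3 and 18.1 in HBG. In each group 1 library stood far above the others: Control 4, Model 2 and HBG 3. The group means, 34.15 ± 24.6, 38.5 ± 34.35 and 38.3 ± 40.4 CPM, therefore rest on these libraries. The log2 fold changes were 0.17, -0.01 and 0.17 (SE 0.73). For Model against Control the value was -0.68 without Model 2 and 0.79 without Control 4, and for HBG against Control it was -0.90 without HBG 3 and 0.78 without Control 4. For HBG against Model it was -1.08 without HBG 3 and 0.85 without Model 2.

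Gpihbp1 and Plvap act at the capillary surface. Gpihbp1 carries lipoprotein lipase to the lumen, where the lipase splits triglycerides. It measured 67.6, 44.5, 70.4 and 84.6 CPM in Control, 39.5, 118, 55.4 and 54.4 in Model and 31.7, 72.4, 98.6 and 70.0 in HBG. Its means of 66.8 ± 16.6, 66.8 ± 34.8 and 68.2 ± 27.55 CPM were nearly equal and the log2 fold changes lay between 0.00 and 0.03 (SE 0.37).

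Plvap forms the diaphragms of fenestrae and caveolae. It was the gene with the lowest fitted fold change in both comparisons with Control. Its values were 415, 217, 341 and 337.5 CPM in Control, 147, 377, 166 and 294 in Model and 74.0, 250, 393 and 233 in HBG. Model 1 and 3 and HBG 1 lay below every Control library, and the other libraries were within the Control range. The means were 328 ± 81.9 CPM in Control, 246 ± 109 in Model and 238 ± 130.5 in HBG, differences smaller than the spread. The log2 fold changes were -0.41 (95% interval -1.36 to 0.53, adjusted p 0.753 by edgeR) and -0.46 (-1.41 to 0.48, adjusted p 0.791). HBG against Model gave -0.05 (SE 0.43). The opposite strand at Plvap holds Gtpbp3, which reached at most 14.7 CPM, and no source used here says whether the counting used strand. Leaving out single libraries moved the value in Model against Control from -0.70 (without Model 2) to -0.23 (without Model 1) and that in HBG against Control from -0.82 (without HBG 3) to -0.17 (without HBG 1). By limma-voom with library weights they were -0.90 (unadjusted p 0.0109, adjusted p 0.0913, the smallest of the 10 genes in any setting tried) and -0.63 (adjusted p 0.547).

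Kit, Ptprb and Tek are receptors or act on one: Kit is the receptor of stem cell factor, Tek (Tie2) that of the angiopoietins, and Ptprb (VE-PTP) the phosphatase that holds Tek in check. Ptprb held 649, 471, 646 and 776 CPM in Control, 373, 1061, 527.5 and 666 in Model and 254, 814, 1156 and 601 in HBG. Tek held 235, 190, 235 and 306 CPM in Control, 135, 377, 172 and 244 in Model and 93.6, 287.5, 423 and 202 in HBG. The library order of the pair was nearly the same. Group means were 636 ± 125.5, 657 ± 295 and 706 ± 378 CPM for Ptprb and 241 ± 47.8, 232 ± 107 and 252 ± 139 CPM for Tek, and no log2 fold change of either was beyond 0.15 in size (SE 0.41). Kit read 121, 92.5, 96.5 and 155 CPM in Control, 89.4, 177, 104 and 131 in Model and 57.3, 125, 184 and 86.2 in HBG, with means of 116 ± 28.8, 125 ± 38.6 and 113 ± 54.8 CPM. Its log2 fold changes were 0.11, -0.15 and -0.04 (SE 0.33), and HBG 1 and 4 were below all Control libraries and HBG 3 above all of them.

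Emcn, the sialoglycoprotein endomucin, was the gene with the highest fitted fold change after bleomycin. Its values were 49.6, 33.7, 45.3 and 70.2 CPM in Control, 60.9, 109, 52.5 and 58.1 in Model and 34.3, 47.5, 98.0 and 41.4 in HBG. All 4 Model libraries were above 3 of the 4 Control libraries, and only Model 2 was above all 4. The means were 49.7 ± 15.2, 70.2 ± 26.3 and 55.3 ± 29.0 CPM. The log2 fold change in Model against Control was 0.50 (95% interval -0.26 to 1.26), with an adjusted p of 0.612 by edgeR, and it was 0.20 without Model 2 and 0.70 without Control 4. HBG against Model gave -0.34 (SE 0.35), which was -0.05 without Model 2 and -0.77 without HBG 3.

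**Figure D2:**
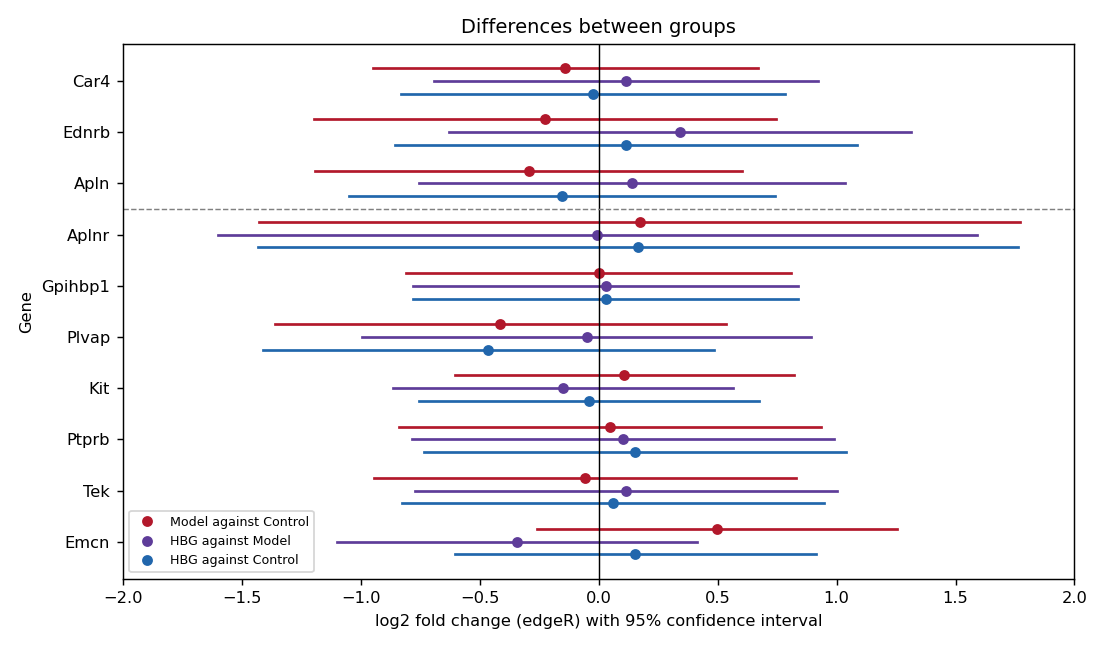
Fitted log2 fold change (horizontal axis) of each gene with its 95% confidence interval (bars) in the comparisons of the 3 groups, aerocyte genes above the dashed line and general capillary genes below. All 30 intervals include 0, with Aplnr the widest and Emcn in Model against Control (0.50) the farthest point from 0.

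The aerocyte genes were set beside the general capillary genes as a description. In Model against Control the median log2 fold change was -0.23 over the 3 aerocyte genes and 0.05 over the 7 general capillary genes, and 0.01 over all tested genes. All 3 aerocyte means were lower in Model, and 4 of 7 general capillary means were higher. In HBG against Model the medians were 0.14 and -0.01 (0.00 over all tested genes), with all 3 aerocyte means and 3 of 7 general capillary means higher. HBG against Control gave -0.02 and 0.06. None of these genes passed the test singly. The 3 aerocyte values in Model against Control stayed below 0 under every alternative except leaving out Model 1. Several of the other directions turned with single libraries or with the model. By limma-voom with library weights all 3 aerocyte genes and 6 of 7 general capillary genes had values below 0 in Model against Control, with class medians of -0.47 and -0.30. Emcn (0.28) was the general capillary gene above 0, and Tek (-0.43) and Gpihbp1 (-0.32) were next to Plvap at the low end. In HBG against Model that method gave class medians of 0.25 and 0.26, and in HBG against Control -0.11 in each. Without Model 1 the Model against Control values were 0.05 for Car4, 0.03 for Ednrb and -0.14 for Apln. Without HBG 3 the HBG against Model values were -0.18, 0.08 and -0.38, and without Model 2 the difference between the class medians in HBG against Model was -0.03, against 0.145 with it.

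Within each library the mean log2 CPM of the aerocyte genes minus that of the general capillary genes, centred over the 12 libraries, was 0.17, 0.14, 0.14 and -0.04 in Control 1 to 4. In Model 1 to 4 it was -0.41, -0.36, -0.01 and 0.10, and in HBG 1 to 4 it was -0.12, 0.14, -0.03 and 0.27. The balance tipped farthest towards general capillary genes in Model 1 and Model 2, while Model 3 and 4 were within the Control range. The group means were 0.10 ± 0.09 in Control, -0.17 ± 0.25 in Model and 0.06 ± 0.18 in HBG (SD, n = 4), and the ranges overlapped. No p is given for this score. Model 1 and Model 2 differed in some lists: the pan-endothelial score was -0.43 and 0.26, the macrophage genes summed to 3065 and 928 CPM, and erythrocyte genes to 269 and 5682 CPM. They were alike in others, with venous scores of 0.41 and 0.32, the highest of the 12 libraries, lymphatic scores of 0.45 and 0.41 and fibroblast scores of 0.40 and 0.56 (log2 scale, centred). The part of these in the balance was not tested. Without Model 4 the difference between class medians in Model against Control was -0.37, against -0.27 with it. Without Model 1 the aerocyte and general capillary medians were 0.03 and 0.24, and without Model 2 they were -0.55 and -0.39. In both of these the classes lay closer together than with all libraries.

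The libraries, not the groups, held most of the variation. Model 2 was the highest Model library and HBG 3 the highest HBG library for all 10 genes, and Control 4 was the highest Control library for 9 of 10 (Control 1 for Plvap). At the other end HBG 1 was the lowest HBG library for all 10, Model 1 the lowest Model library for 8 (Model 3 for Aplnr and Emcn), and Control 2 the lowest Control library for 9. Over the 12 libraries HBG 3 was among the top 2 for all 10 genes and HBG 1 was the lowest for 8.

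Groups accounted for a median of 3.21% of the variance of log2 CPM of the 10 genes, against 15.99% over all tested genes. Some share falls between small groups by chance, so neither value is by itself an effect of group. Most of the variance lay within groups for the typical tested gene too. The SD within groups had a median of 0.67 on the log2 scale, against 0.28 over all tested genes and 0.20 over the 10823 tested genes above 10 CPM. Aplnr (1.11) spread more than 98.9% of those genes and Kit, the steadiest of the 10, more than 91.35%. The aerocyte genes' mean differed between the extreme libraries of a group by 1.74-fold in Control, 2.72-fold in Model and 4.53-fold in HBG, and that of the general capillary genes by 1.97-fold, 2.63-fold and 4.26-fold.

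Other marker lists moved with these libraries. The 8 proliferation genes summed to 74.5, 98.6 and 159 CPM in Control 4, Model 2 and HBG 3, and to 14.3 to 38.7 CPM in the other 9. In the same 3 libraries 7 erythrocyte genes summed to 4409, 5682 and 4468 CPM, where Control 1 had 4392 CPM and the other 8 had 269 to 1731 CPM. HBG 1, the library with the lowest capillary levels, had the lowest pan-endothelial score (-0.93), the lowest pericyte sum of 8 genes (271 CPM against 342 to 446 in the other 11) and the highest adipocyte sum of 6 genes (381 CPM against 6.83 to 245). Control 2 had the highest cardiac sum (5595 CPM) and the highest sum of 14 immediate early and heat shock genes (6241 CPM against 1037 to 2356 in the other 11). The part of these in the capillary levels was not tested.

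**Figure D3:**
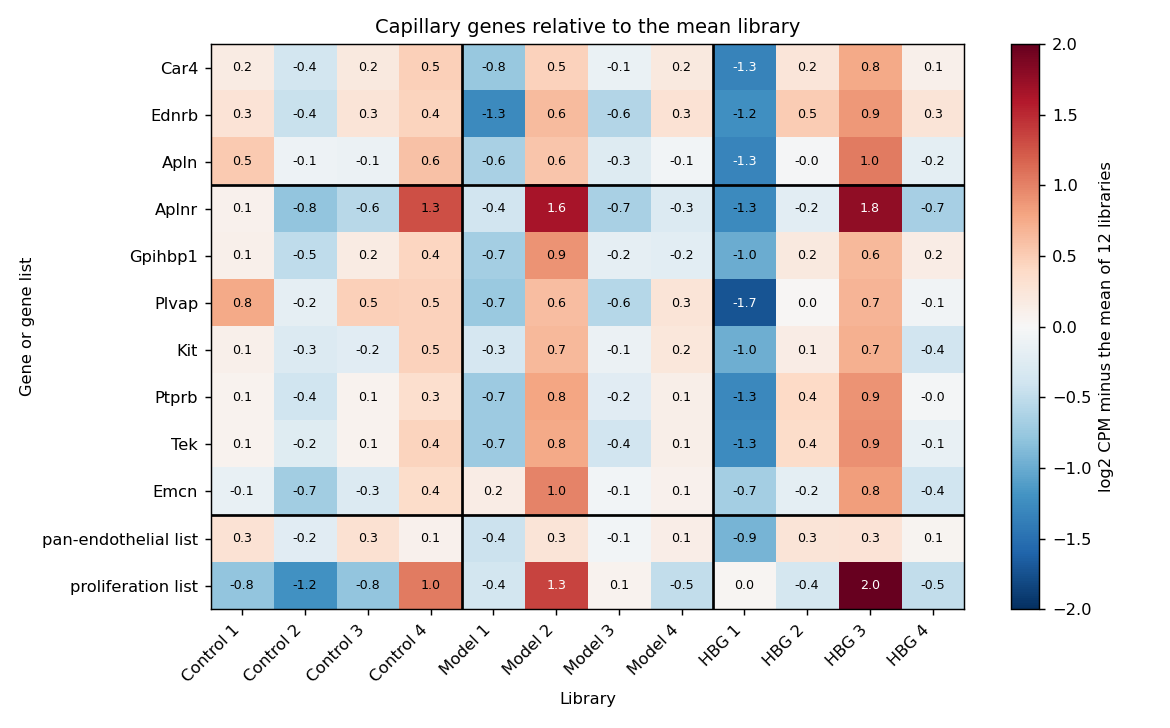
Log2 CPM of each gene, and score of each gene list, minus its mean over the 12 libraries (colour) for each library (columns, in group order). Columns Control 4, Model 2 and HBG 3 are high for nearly every gene and HBG 1 is low for all 10.

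The 10 genes varied together over the 12 libraries. Pearson's r of log2 CPM was 0.529 to 0.991 over the 45 pairs with a median of 0.889, and 43 pairs had a Benjamini-Hochberg adjusted permutation p under 0.05 (two-sided, 100000 permutations, adjusted over 45). The libraries share depth and tissue content in each pair, and the groups were pooled. No share over pairs of all tested genes was computed, so this count does not set the 10 genes apart from other genes. Ptprb and Tek had the highest value (r 0.991, rho 0.979, each with a permutation p of 1e-05, the smallest these permutations can give; adjusted 5e-05 and 0.00015), and r was 0.977 without the 2 libraries farthest from the median. Apelin and its receptor had r of 0.858 (permutation p 6e-05, adjusted 0.00012) and rho of 0.874 (permutation p 0.00043, adjusted 0.00094), with r of 0.795 without the 2 farthest libraries. Car4 and Ednrb had r of 0.951 (permutation p 2e-05, adjusted 6.4e-05) and rho of 0.923 (permutation p 7e-05, adjusted 0.00045), with r of 0.925 without 2.

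Aplnr and Emcn had the lowest values with several genes and high values with each other and with Kit. The pair had r of 0.9175 (permutation p 5e-05, adjusted 0.00012) and rho of 0.853 (permutation p 0.00083, adjusted 0.0015) with one another, and r of 0.781 without the 2 farthest libraries. Aplnr with Kit had r of 0.911 (permutation p 1e-05, adjusted 5e-05) and rho of 0.909 (permutation p 0.00013, adjusted 0.00053), with r of 0.846 without 2. Kit with Emcn had r of 0.854 (permutation p 0.00033, adjusted 0.00049) and rho of 0.783 (permutation p 0.0038, adjusted 0.0052), with r of 0.792 without 2. The 28 pairs without these genes had r of at least 0.808, while Emcn with Ednrb (r 0.529, rho 0.552, adjusted permutation p 0.074 and 0.068) and Emcn with Plvap (r 0.559, rho 0.4755, adjusted permutation p 0.060 and 0.12) were the lowest and were the pairs whose r missed 0.05. By rho, Emcn with Apln and with Gpihbp1 missed it too (adjusted permutation p 0.053 and 0.058). The class did not order the pairs: the median r was 0.923 over the 3 aerocyte pairs, 0.854 over the 21 general capillary pairs and 0.905 over the 21 mixed pairs.

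The genes were compared in the same way with 2 list scores, 20 relations in all. With the pan-endothelial score of 15 genes, r was 0.940 for Car4 and 0.939 for Plvap (adjusted permutation p 0.00047 in each; rho 0.748 and 0.923, adjusted 0.040 and 0.001), and 0.562 for Aplnr and 0.485 for Emcn (adjusted permutation p 0.078 and 0.13; rho 0.657 and 0.329, adjusted 0.051 and 0.32). Without the 2 farthest libraries the values were 0.7405, 0.768, 0.469 and 0.499. With the proliferation score, r was 0.838 for Aplnr and 0.832 for Emcn (adjusted permutation p 0.006 and 0.0025; rho 0.5315 and 0.713, adjusted 0.13 and 0.040). Without the 2 libraries farthest from the median of that score they were 0.558 and 0.563, so the relation rests in part on those libraries. Plvap had r of 0.257 with it (adjusted permutation p 0.42).

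**Figure D4:**
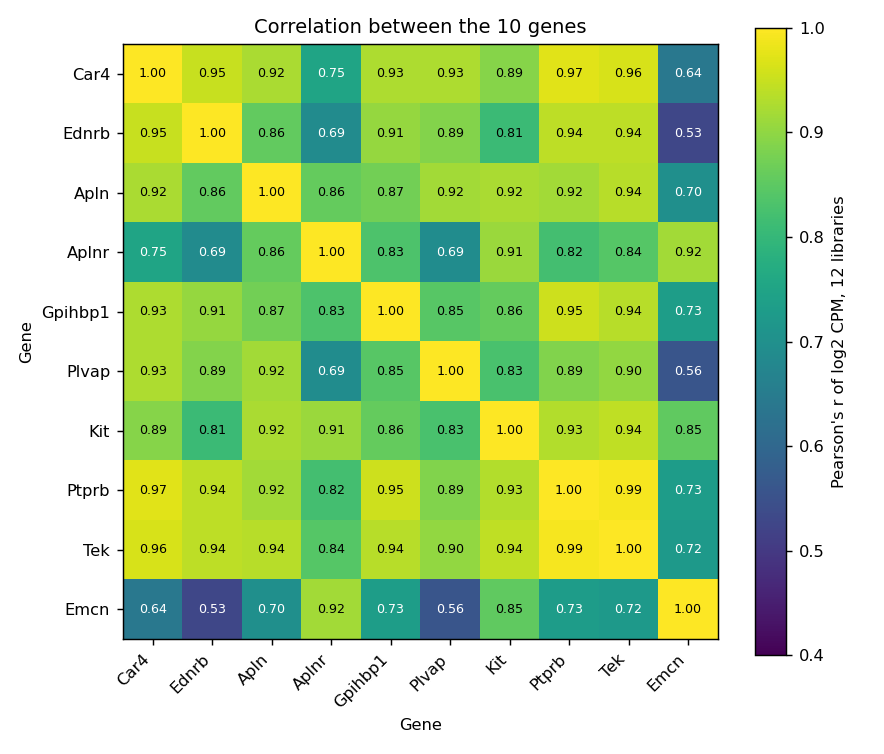
Pearson's r of log2 CPM over 12 libraries (colour, number in each cell) for each pair of the 10 genes (both axes). The lowest values are Emcn with Ednrb (0.529), Plvap (0.559) and Car4 (0.6395) and Aplnr with Ednrb and Plvap (0.69 in each), and Ptprb with Tek is the highest at 0.991.

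Among 15886 genes ranked by r with Car4 over the 12 libraries, the first 5 were Icam2 (0.984), Kitl (0.983), Clec14a (0.979), Notch4 (0.9735) and Edil3 (0.973). Ptprb was at rank 6, Tek at 10, Ednrb at 28, Plvap at 82, Gpihbp1 at 86 and Apln at 95. Kit was at 195, Aplnr at 867 and Emcn at 1631. Ptprb and Tek, classed as general capillary genes, thus ranked above the other aerocyte genes. For Gpihbp1 the first 5 were Sema3g (0.973), Impdh1 (0.969), Ppp1r16b (0.965), Mfng (0.960) and Afap1l1 (0.957), with Ptprb at rank 7. Tek was at 17, Car4 at 28, Ednrb at 82 and Apln at 204. Kit was at 265, Plvap at 330, Aplnr at 399 and Emcn at 1073.

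Levels of different genes were compared per kilobase of the gene length in the table, over all 12 libraries. Plvap was the highest at 136 ± 54.0 CPM per kb (SD, n = 12), followed by Ptprb (94.95 ± 37.2), Car4 (88.3 ± 29.6) and Gpihbp1 (81.5 ± 30.0). Tek (51.9 ± 20.5), Ednrb (30.7 ± 12.4), Kit (22.7 ± 7.38) and Emcn (22.6 ± 9.17) came next, and Apln (11.7 ± 4.86) and Aplnr (9.99 ± 8.27) were the lowest CPM per kb. Plvap was above Ptprb in 12 of 12 libraries, as was Gpihbp1 above Tek, Tek above Ednrb, and Emcn above Apln. Ptprb was above Car4 in 7 of 12 libraries and Kit above Emcn in 7 of 12, so these neighbours had no fixed order. Car4 lay above Gpihbp1 in 10 of 12, Ednrb above Kit in 10 and Apln above Aplnr in 9.

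The genes were also set against endothelial RNA as a whole. Each gene's log2 CPM was taken minus the mean of the 15 pan-endothelial genes in the same library. On this scale no gene had 2 groups without overlap, where 2.89%, 0.196% and 1.57% of all tested genes did in the same order of comparisons. The edgeR test with library totals scaled to the list called 0 of the 10 genes (background 0.0561%, 0.0% and 0.0393%); under that scaling the median log2 fold change of all tested genes was 0.16, 0.13 and 0.28, against 0.01, 0.00 and 0.01 with TMM.

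Plvap relative to the list was 0.83 ± 0.19 in Control, 0.48 ± 0.40 in Model and 0.38 ± 0.49 in HBG (log2, SD, n = 4). Model 1 and 3, and 3 of 4 HBG libraries, were below all Control libraries. Emcn relative to the list was -1.90 ± 0.39 in Control, -1.28 ± 0.40 in Model and -1.62 ± 0.52 in HBG, and 2 of 4 Model libraries were above all Control libraries. With this scaling the log2 fold changes in Model against Control were -0.31 for Plvap (SE 0.29) and 0.62 for Emcn (SE 0.31), both with an adjusted p of 0.9996 by edgeR. Ednrb relative to the list was -1.14 ± 0.24, -1.37 ± 0.57 and -0.97 ± 0.37. Pairs of the 10 genes relative to the list had r of 0.0249 to 0.969 with a median of 0.712, and 29 of 45 had an adjusted permutation p under 0.05. The same list mean is subtracted from both genes of a pair, which can raise r by itself. The permutations do not account for this, and no share over pairs of all tested genes was computed. These values therefore do not show that the genes vary together beyond endothelial RNA.

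**Figure D5:**
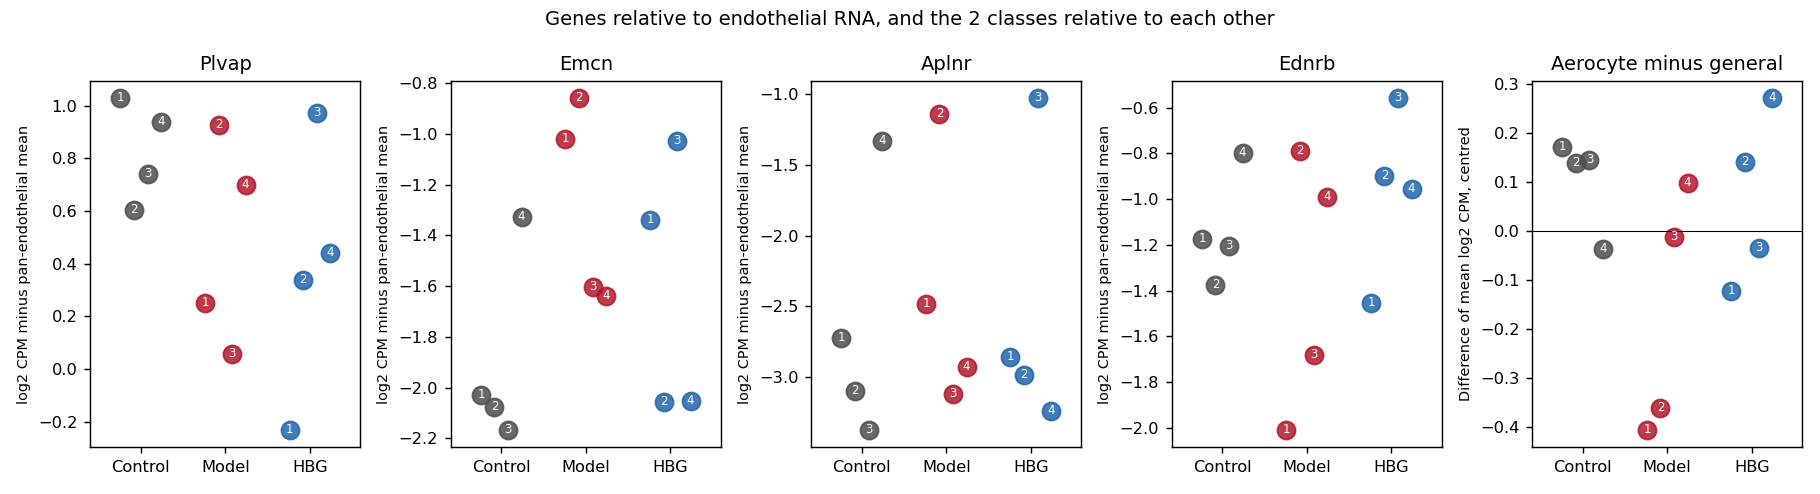
Log2 CPM of Plvap, Emcn, Aplnr and Ednrb minus the pan-endothelial mean of the same library, and the centred aerocyte minus general capillary difference (vertical axes), by library (points) in each group. Plvap is lower in 3 of 4 HBG libraries than in every Control library and Emcn higher in 2 of 4 Model libraries, while the ranges overlap in each panel.

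Partners of the 10 genes in their pathways were measured too. The other apelin receptor ligand, Apela, was at or below 0.317 CPM in every library. In the endothelin pathway (6 of 7 genes tested, 0 called in any comparison) the ligand Edn1 had means of 47.6 ± 10.6, 47.3 ± 8.61 and 35.3 ± 8.86 CPM in Control, Model and HBG, with a log2 fold change of -0.43 in HBG against Control (SE 0.21, adjusted p 0.611 by edgeR). The constricting receptor Ednra was 71.25 ± 1.92 CPM in Control and 86.4 ± 9.07 in Model without overlap (log2 fold change 0.28, SE 0.15, adjusted p 0.508 by edgeR), and 77.1 ± 19.0 in HBG. The converting enzyme Ece1 had means of 270.2, 316 and 325 CPM. The ligand Edn3 had 23.15 ± 4.16 CPM in Control and 17.7 ± 4.49 in Model (log2 fold change -0.39).

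The angiopoietin and Tie pathway (8 of 8 tested) had 0 genes called, and its smallest p in Model against Control was that of Svep1 (42.0 ± 4.87 against 61.9 ± 16.7 CPM in Control and Model, log2 fold change 0.56). Angpt1, the activating ligand of Tek, had means of 86.1 ± 11.3, 75.4 ± 19.1 and 77.4 ± 23.2 CPM, Angpt2, its context-dependent antagonist, 28.9 ± 3.62, 23.7 ± 5.43 and 25.65 ± 10.3, and the co-receptor Tie1 221 ± 31.5, 209 ± 56.8 and 214 ± 75.6. Kitl, the ligand of Kit, had 245 ± 34.1, 214 ± 44.3 and 233 ± 87.1 CPM, and 0 of 9 genes of the KIT pathway were called. The adaptors Gab2 (0.43, no overlap between Control and Model) and Grb2 (0.14) had the smallest p of that pathway, given here as log2 fold changes in Model against Control. Lpl, the enzyme that Gpihbp1 binds, had 237 ± 64.9, 294 ± 78.9 and 262 ± 63.5 CPM, and its inhibitor Angptl4 had 23.05 ± 11.04, 35.5 ± 8.70 and 30.2 ± 11.1 CPM (log2 fold change 0.62 in Model against Control, SE 0.36, adjusted p 0.530 by edgeR), with 0 of 9 tested genes of that pathway called. Angptl8, another inhibitor, had a log2 fold change of -0.43 in that comparison (adjusted p 0.544 by edgeR). Cav1, the coat protein of caveolae, had 1125 ± 171, 1220 ± 213 and 1223 ± 353.5 CPM, and none of 7 genes of caveolae and fenestrae was called. Cavin3 (40.5 ± 1.74 and 29.7 ± 4.03 CPM in Control and Model, log2 fold change -0.45) and Ehd2 (421 ± 40.1 and 534 ± 25.7 CPM, 0.34) had groups without overlap, in opposite directions, with adjusted p of 0.148 and 0.285 by edgeR. Of the 10 VEGF pathway genes 0 were called: Vegfa had means of 785, 718 and 651 CPM, and the receptors Kdr 249, 266 and 299 CPM and Flt1 193.5, 202 and 214.5 CPM. Vegfb (log2 fold change -0.61 in Model against Control) and the co-receptor Nrp2 (0.49) had the smallest p of that list.

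Further genes of the same cell kinds were tested. Of 8 other aerocyte genes, 0 were called in any comparison, and 5 of 8 means were lower in Model (median log2 fold change -0.21). Tbx2, a transcription factor on this aerocyte list, had the lowest p among them. It was 264, 187, 245 and 231 CPM in Control 1 to 4 and 127.5, 143, 143 and 172 in Model 1 to 4. The groups did not overlap, and the log2 fold change was -0.66 (SE 0.17) with an adjusted p of 0.158 by edgeR. In HBG it was 115, 198.5, 135 and 164 CPM, with 3 of 4 libraries below all of Control. Rprml, also on that list, was low throughout, at 1.71 ± 0.778 CPM in Control and 0.569 ± 0.288 in Model without overlap (log2 fold change -1.57, SE 0.50, adjusted p 0.261 by edgeR). Fibin had means of 61.4, 49.3 and 64.0 CPM and Prx 139.5, 167 and 162 CPM. Of 7 other general capillary genes 0 were called and 5 of 7 means were higher in Model (median 0.23), the smallest p being that of the chemokine Cxcl12 (log2 fold change 0.41). Their means in Control, Model and HBG included Sema3c at 277, 325 and 288 CPM, Cd93 at 366, 436 and 378 and Hilpda at 38.0, 29.8 and 34.0.

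In the pan-endothelial list 0 of 15 genes were called and 6 of 15 means were higher in Model. Pecam1 had means of 557, 687 and 617 CPM and Cdh5 462.5, 586.5 and 546.5 CPM, while Cldn5, a tight junction protein, had 375 ± 55.7, 228 ± 55.3 and 232 ± 78.4 CPM. Cldn5 was below all Control libraries in all 4 Model and all 4 HBG libraries (log2 fold changes -0.72 and -0.69, SE 0.27; adjusted p 0.327 and 0.5375 by edgeR). Its value in HBG against Model was 0.03. Sox18, an endothelial transcription factor, had 104 ± 36.1 CPM in Control and 48.8 ± 9.43 in Model (log2 fold change -1.09, SE 0.29, adjusted p 0.181 by edgeR), and the groups overlapped. A list of 14 immediate early and heat shock genes, known to react to tissue handling too, moved with the same groups. All 14 means were lower in Model and in HBG than in Control (median log2 fold changes -1.18 and -1.20, 0 called), with sums of 1213 to 6241 CPM in Control libraries, 1037 to 1547 CPM in Model libraries and 1129 to 1735 CPM in HBG libraries. The list holds Klf2, a flow-responsive endothelial factor, at 244 ± 68.65, 107 ± 18.4 and 125 ± 31.9 CPM (log2 fold change -1.19 in Model against Control, adjusted p 0.0791 by edgeR, no overlap). The part of this list in the values of Tbx2, Cldn5 and Sox18 was not tested.

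Kit and Ednrb are also used by cells other than endothelium, mast cells and melanocytes among them. Of 8 mast cell genes 2 passed the filter on low counts (Hdc and Cma1): Cpa3 was at most 1.37 CPM and Mcpt4 at most 2.68 CPM, with Hdc, which other cells use too, at 65.9 to 146 CPM. The mast cell sum was 105 to 132 CPM in Control libraries, 100.7 to 152.4 CPM in Model libraries and 71.8 to 147 CPM in HBG libraries, nearly all of it Hdc. The 5 melanocyte genes summed to 1.02 to 3.36, 1.12 to 2.88 and 1.298 to 2.146 CPM, with Dct at 0 in 2 libraries. Cpa3, Ms4a2 and Cma1 were highest in Model 2 and HBG 3, the libraries with the highest Kit. Cpa3 was 1.16 and 1.37 CPM there and at most 0.3003 CPM in the other 10. Ms4a2 was 1.97 and 1.18 CPM against at most 0.691, and Cma1 was 3.43 and 2.36 CPM against at most 1.57. The other listed genes did not all follow. Tpsb2 and Mcpt4 were high in Model 2 alone (1.515 and 2.68 CPM, with 0.0945 and 0.236 CPM in HBG 3). Fcer1a was 0.614 CPM in HBG 3, 0.1515 CPM in Model 2 and 0.148 CPM in Control 4. Hdc was lowest in HBG 3, at 65.9 CPM. The part of mast cells in the level of Kit was not tested.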

How the data were processed

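Polyadenylated RNA of mouse lung was measured in 12 libraries, grouped by their titles into Control, Model and HBG (4 each; HBG titles carry another abbreviation, HSBD). The authors deposited 1 table of estimated counts per gene. The header does not name the unit, which was read from the values: 23.9% to 32.9% of the values above 0 in a library were not whole. The submitters' processing notes name the aligners STAR 2.7.9a and HISAT2, the counters HTSeq and featureCounts 2.0.1, the trimmers fastp, cutadapt and Trimmomatic 0.39, FastQC 0.11.9, DESeq2 1.34.0 and 2 builds (mm10 and GRCm39), without saying which made the table. The steps and the annotation behind the counts are not given in the sources used here. Reads shared by similar or overlapping genes may have been divided in ways that cannot be checked. Columns of group means (3) were not used. Of 56980 genes, 22654 were at 0 in all libraries.

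Estimated counts were rounded to whole numbers and fitted with edgeR 4.0.16 (R 4.3.3, limma 3.58.1): TMM scaling, filterByExpr (17827 genes kept), the quasi-likelihood F test over all 12 libraries with group as the only term, two-sided, and Benjamini-Hochberg adjustment over all tested genes at 0.05. Standard errors derive from the F statistic. Log2 CPM used a prior count of 2. The script was tested on simulated counts. Scores of gene lists are averages, per library, of log2 CPM over the tested genes, centred over libraries. Correlations used SciPy 1.17.1 with 100000 permutations. Promoters are those of RefSeq's table (GRCm38.p6), matched by symbol. Alternatives were DESeq2 1.42.0, limma-voom with library weights, RLE, upper-quartile and pan-endothelial scaling, other filters (none, or a mean of 1 CPM), only the 2 groups compared, each library left out, and a block for the replicate number. Floors of 3 counts and the confidence intervals of fold changes do not cover errors of tissue sampling, and the reads carry no stated molecular identifiers.

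The 10 genes and the 29 gene lists were chosen with earlier results of these data known. The genes named are all 10, 23 fixed partner genes, any listed gene past the threshold, the 2 smallest p of each vascular or pathway list in Model against Control, and the 5 genes most correlated with Car4 and with Gpihbp1 (mean of at least 1 CPM). Of the lists, those of other cell types and RNA quality serve only to describe the libraries.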

Additional observations from a re-analysis of the deposited data

Results flagged for a closer look

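In 4 of 33 groups of 4 values examined, 1 library lay far from the other 3 (gap to its nearest neighbour over the whole range above Dixon's 95% critical value). Chance flags about 1 in 20 groups where the groups are independent and the values normal. These groups share libraries and hold correlated genes, so 4 of 33 cannot be set against that rate. Aplnr was 89.9 CPM in Model 2, where the other Model libraries had 18.3 to 23.7 CPM, and 98.3 CPM in HBG 3, where the others had 11.9 to 24.8 CPM. Emcn was 109 CPM in Model 2, where the others had 52.5 to 60.9 CPM. The aerocyte minus general capillary score was -0.04 (-0.036) in Control 4, where the other Control libraries had 0.14 to 0.17. Control 4, Model 2 and HBG 3 are also the libraries with the highest sums of proliferation genes in their groups (74.5, 98.6 and 159 CPM), and the part of this was not tested.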

How the results depend on the processing

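None of the 10 genes passed the threshold in any of 660 fits under the alternatives (smallest adjusted p 0.0913, Plvap in Model against Control by limma-voom), and 98 of the 660 turned sign. Of 30 fold changes, 6 kept their sign throughout: Plvap in both comparisons with Control, Emcn in Model against Control and HBG against Model, Apln in Model against Control, and Ednrb in HBG against Model. Leaving out 1 library, these ran from -0.70 to -0.23, -0.82 to -0.17 (HBG against Control), 0.20 to 0.70, -0.77 to -0.046, -0.56 to -0.14 and 0.076 to 0.67. The class differences moved by less than 1 SD between libraries under each of the 23 alternatives run for them. That SD was 0.186, larger in size than the difference of class medians in HBG against Model (0.145) and in HBG against Control (-0.08). A difference there could turn sign and still move by less than 1 SD, so this says little of those comparisons. Of the alternatives, 7 were added after the data were seen (DESeq2, limma-voom, filters, only 2 groups, the replicate block and 3 libraries left out). Each gene had at least 255 reads in each library; what limited detection was not tested. Pan-endothelial scaling moves all fold changes together, and the other causes were not tested.

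Genes called over the whole table in Model against Control numbered 62, and 417 by DESeq2, 1079 by limma-voom, 10 with pan-endothelial scaling and 25 with the replicate block. In HBG against Model they numbered 0, and 3 by DESeq2. In HBG against Control they numbered 27, and 198 by DESeq2, 101 by limma-voom, 7 with pan-endothelial scaling and 17 with the replicate block. With a library left out they ranged from 23 (without Control 3) to 100 (without HBG 3) and from 16 (without Control 3) to 53 (without Model 2).

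Log2 fold changes that turned sign in Model against Control were Gpihbp1 at 0.012 (DESeq2), 0.0074 (RLE), 0.087 (pan-endothelial), 0.022 (no filter) and 0.015 (only 2 groups), Tek at 0.013 (pan-endothelial), and Aplnr -0.29, Kit -0.072 and Ptprb -0.30 by limma-voom. In HBG against Model they were Plvap at 0.26 by limma-voom, and Aplnr at 0.0145 (DESeq2), 0.011 (RLE), 0.0061 (upper quartile), 0.012 (no filter) and 0.0075 (only 2 groups). In HBG against Control they were Car4 at 0.0022 (DESeq2), 0.049 (pan-endothelial) and 0.0083 (no filter), Kit at 0.061 (pan-endothelial), and by limma-voom Aplnr -0.32, Gpihbp1 -0.0115, Ptprb -0.0003, Tek -0.11 and Emcn -0.092. Without Control 4, Model 2 and HBG 3, a fit added after the data were seen, Model against Control had Aplnr at -0.070 and Ptprb at -0.19, HBG against Model had Apln at -0.11, and HBG against Control had Ednrb -0.0485, Aplnr -0.29, Gpihbp1 -0.074, Ptprb -0.088, Tek -0.19 and Emcn -0.069.

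Replicate numbers did not pair the libraries: 3 of 12 same-numbered pairs correlated above 0.1 (r -0.357 to 0.482), and 3 of 12 libraries correlated best with their own number. The replicate block turned Ptprb to -0.079 in Model against Control, and Ednrb to -0.079, Aplnr to -0.15, Gpihbp1 to -0.091, Ptprb to -0.035 and Tek to -0.11 in HBG against Control.

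Leaving out 1 library at a time gave these ranges where a sign turned. In Model against Control they were Car4 -0.33 to 0.046, Ednrb -0.55 to 0.026, Aplnr -0.68 to 0.79, Gpihbp1 -0.42 to 0.18, Kit -0.105 to 0.27, Ptprb -0.28 to 0.24 and Tek -0.39 to 0.13. In HBG against Model they were Car4 -0.18 to 0.39, Apln -0.38 to 0.41, Aplnr -1.08 to 0.85, Gpihbp1 -0.20 to 0.45, Plvap -0.41 to 0.25, Kit -0.49 to 0.071, Ptprb -0.24 to 0.44 and Tek -0.26 to 0.45. In HBG against Control they were Car4 -0.32 to 0.25, Ednrb -0.15 to 0.40, Apln -0.67 to 0.12, Aplnr -0.90 to 0.78, Gpihbp1 -0.20 to 0.27, Kit -0.38 to 0.18, Ptprb -0.19 to 0.43, Tek -0.31 to 0.33 and Emcn -0.28 to 0.36.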

Other observations

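The one called gene of the vascular lists was in the list of venous endothelium, and bulk tissue does not show which cells held its RNA. Of 8 venous genes 1 was called in Model against Control (background 0.348%) and all 8 means were higher in Model (median log2 fold change 0.37, against 0.01 over all tested genes). The called gene was Selp, P-selectin, which binds leukocytes to activated endothelium and platelets. It was 3.88, 4.20, 3.498 and 3.65 CPM in Control 1 to 4, 10.1, 8.94, 6.79 and 7.87 in Model 1 to 4 and 7.37, 4.76, 6.95 and 6.54 in HBG 1 to 4. All Model and all HBG libraries were above all Control libraries. The log2 fold change was 1.14 (SE 0.18) with an adjusted p of 0.0195 by edgeR in Model against Control and 0.75 (SE 0.18, adjusted p 0.191) in HBG against Control. Bst1, next in that list, had 15.9 ± 2.11 CPM in Control and 32.5 ± 10.4 in Model without overlap (log2 fold change 1.04, adjusted p 0.142 by edgeR). Percentages of all tested genes without overlap in that comparison came to 8.71%.

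Of 6 lymphatic genes 0 were called and 5 means were higher in Model (median 0.61), with Mmrn1 at 1.04 and Reln at 0.88 (log2 fold changes; adjusted p 0.237 and 0.250 by edgeR). Of 7 arterial genes 0 were called and 4 means were higher (median 0.14), with Hey1 at -0.54 and Fbln5 at 0.42. Of 9 genes reported in injured endothelium 0 were called and 6 means were higher (median 0.37), with Ntrk2 at 1.17 and Sparcl1 at 0.43. The macrophage sums (280 to 410 CPM in Control, 365 to 3065 in Model) moved with the group as well, as did 9 fibroblast genes (8 means higher in Model, median log2 fold change 0.42; sums of 1371 to 1500 CPM in Control and 1489 to 2950 in Model). Some of these lists hold genes that stromal cells also use (Fbln5, Sparcl1). The part of macrophages and fibroblasts in these values was not tested.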
